A study of Homo sapiens with 18 samples.

Results

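ASB2, PRAM1, TNFAIP2, CD38, UBA7, HIC1, BTG1 and BTG2 are known as genes that all-trans retinoic acid (ATRA) induces in acute promyelocytic leukemia cells. These 8 genes were taken by name, and each was read from the probe set annotated to that gene alone. Such a probe set was found for 7 of the 8, with 1 probe set each, out of 18417 genes that the array measures by a probe set of 1 gene. BTG2 was not analysed here. In both cell lines studied, the 7 genes had higher mean signals under ATRA than without it. Their mean log2 signals rose by between 0.79 and 3.36 after 72 h in wild-type cells and by between 0.94 and 3.24 in knockout cells.

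Total RNA was measured on 18 Affymetrix arrays in 6 groups of 3 biological replicates. NB4 is an established cell line from a human acute promyelocytic leukemia and carries the PML-RARA fusion. Wild-type NB4 cells and NB4 cells labelled TG2 knockout were left untreated or were given 1 µM ATRA for 48 or 72 h. All groups were grown in the same serum-containing medium. How the knockout line was made, and whether it is 1 clone, is not given in the sources used here. Sample titles say knockout, whereas the short codes beside them contain KD. The design compares the lines at each time and uses the untreated cells as controls.

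As background, PML-RARA holds retinoic acid receptor target genes in a repressed state and blocks maturation at the promyelocyte stage. ATRA at pharmacological doses relieves this repression, leads to loss of the fusion protein, and lets the cells mature towards neutrophils. Retinoic acid receptors bind DNA with retinoid X receptors at pairs of a short hexamer, often arranged as direct repeats. The genes followed here act at different levels of this programme: protein turnover (ASB2, UBA7), signalling and membrane shape (PRAM1, TNFAIP2), an ectoenzyme of the cell surface (CD38), and control of transcription and growth (HIC1, BTG1).

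The 250 bases before an annotated start site of 4 of these genes are shown because the genes rose together under a nuclear receptor ligand. They are RefSeq sequences of GRCh38.p14, written 5′ to 3′ on the strand of the gene. Capitals mark a receptor hexamer on either strand. The hexamers searched were AGGTCA and 3 variants of it: first GGTTCA, then GGGTCA, and also AGTTCA.
ASB2, chr14:93976571-93976820 (minus strand): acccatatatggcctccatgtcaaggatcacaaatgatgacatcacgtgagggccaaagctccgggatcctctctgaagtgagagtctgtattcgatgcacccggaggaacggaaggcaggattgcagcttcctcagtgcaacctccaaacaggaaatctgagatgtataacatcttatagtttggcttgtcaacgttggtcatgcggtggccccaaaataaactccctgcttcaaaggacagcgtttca
TNFAIP2, chr14:103123211-103123460 (plus strand): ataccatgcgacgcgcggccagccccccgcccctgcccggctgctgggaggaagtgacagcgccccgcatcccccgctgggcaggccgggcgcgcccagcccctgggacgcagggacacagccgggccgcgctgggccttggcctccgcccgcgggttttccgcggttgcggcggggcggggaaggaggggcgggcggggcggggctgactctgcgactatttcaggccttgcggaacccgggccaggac
CD38, chr4:15778078-15778327 (plus strand): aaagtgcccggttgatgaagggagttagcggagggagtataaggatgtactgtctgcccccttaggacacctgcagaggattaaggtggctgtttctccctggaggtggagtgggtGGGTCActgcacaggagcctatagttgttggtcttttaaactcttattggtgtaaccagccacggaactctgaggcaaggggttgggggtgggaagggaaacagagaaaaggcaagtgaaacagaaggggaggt
BTG1, chr12:92145847-92146096 (minus strand): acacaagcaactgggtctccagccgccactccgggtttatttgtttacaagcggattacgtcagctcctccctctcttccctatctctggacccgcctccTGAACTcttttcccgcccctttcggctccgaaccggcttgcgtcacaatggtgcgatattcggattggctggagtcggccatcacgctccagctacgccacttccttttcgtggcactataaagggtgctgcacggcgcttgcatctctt
The table used gives a second start for ASB2. For TNFAIP2 the start used lies inside the gene interval, which begins at chr14:103121469, so the window shown is not that before the interval. PRAM1, UBA7 and HIC1 are not shown. Letters were searched on both strands from 250 bases before to 50 bases after each start. In CD38 the hexamer GGGTCA began 134 bases before the start, and in BTG1 the letters TGAACT, which are AGTTCA on the other strand, began 150 bases before it. In TNFAIP2 the letters TGACCT, which are AGGTCA on the other strand, began at base 29 after the start. In ASB2 a GGTTCA began at base 45 after the second start, and the window of the start shown above had none. Single hexamers are common: 38.6% of the 35116 promoter windows of the same length held at least 1. Hexamers as direct repeats with 1, 2 or 5 bases between them occurred in 0.131%, 0.0399% and 0.0883% of windows. A pair of GAAA with 2 bases between them, as in interferon response elements, occurred in 3.57%. None of these longer patterns occurred in the windows of ASB2, TNFAIP2, CD38 or BTG1. The TNFAIP2 window was rich in G and C (75.7%, with 35 CG pairs), whereas that of CD38 had 54% and 4 CG pairs.

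Signals are given as log2 values as deposited, and replicates 1, 2 and 3 are given in that order. A group mean is followed by its SD over 3 arrays. Differences are log2 differences between group means from a limma fit of all 33297 probe sets, with SE and Benjamini-Hochberg adjusted p over all probe sets. A gene was called changed at an adjusted p under 0.05. TGM2, which encodes TG2, was read first as a check of the labels. Without ATRA its mean signal was 6.43 ± 0.17 in the wild-type line and 6.39 ± 0.11 in the knockout line. At 72 h of ATRA it was 12.37 ± 0.18 in wild-type and 11.24 ± 0.37 in knockout cells. TGM2 was lower in the knockout line at 48 h (difference −1.31, adjusted p = 0.0345) and at 72 h (−1.13, adjusted p = 0.0267), but not detectably so in untreated cells (−0.04, adjusted p = 1). These calls are not firm: they held in 7 of 18 alternatives at 48 h and 8 of 18 at 72 h. They were lost with array weights (adjusted p = 0.386 at 48 h and 0.135 at 72 h) and with only the groups compared (0.997 and 0.313). The 48 h call was lost without wild-type replicate 1 (adjusted p = 0.0749), 2 (0.0736) or 3 (0.134) or knockout replicate 1 (0.0726) or 2 (0.112). The 72 h call was lost without wild-type replicate 1 (adjusted p = 0.132) or 3 (0.072) or knockout replicate 2 (0.0599) or 3 (0.0712). Its transcript thus also rose under ATRA in the knockout line, by 4.85 at 72 h. Where the TGM2 probes lie relative to the disrupted part is not given in the sources used here, so these signals are no measure of the protein, and "knockout" is used here only as the name the labels give the line. Promyelocyte granule genes did not behave alike. MPO had group means between 12.22 and 12.69 and PRTN3 between 11.99 and 12.48, while ELANE lay between 7.34 and 7.68. At 72 h of ATRA, AZU1 had gone from a mean of 8.37 to 9.50 in wild-type and from 8.60 to 9.44 in knockout cells. CTSG had gone from 9.58 to 7.10 and from 10.23 to 7.30. These are bulk samples, in which fewer expressing cells and less RNA per cell cannot be told apart.

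ASB2 is the substrate-recognition subunit of a CUL5 ubiquitin ligase that drives the breakdown of filamins. Its probe set (7981020; gene at chr14:93934166-93976570, GRCh38.p14) had log2 signals of 5.54, 5.48 and 5.52 in untreated wild-type cells and 5.73, 5.62 and 5.54 in untreated knockout cells. Under ATRA the wild-type arrays read 7.70, 8.19 and 9.38 at 48 h and 9.10, 8.25 and 9.28 at 72 h. The knockout arrays read 7.16, 7.54 and 8.54 at 48 h and 8.80, 7.68 and 8.66 at 72 h. All 12 treated arrays lay above all 6 untreated ones, and the treated arrays of both lines overlapped. ASB2 rose 7.52-fold at 48 h (difference 2.91 ± 0.41 SE, adjusted p = 3.84e-05) and 10.3-fold at 72 h (adjusted p = 8.06e-06) in wild-type cells. In knockout cells it rose 4.34-fold (adjusted p = 0.000685) and 6.73-fold (adjusted p = 7.2e-05). Its replicates under ATRA were far apart, with SDs of 0.86 and 0.55 in wild-type and 0.71 and 0.61 in knockout cells, against 0.03 and 0.10 without ATRA.

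UBA7 is the enzyme that activates ISG15, a ubiquitin-like modifier of the interferon response. Its probe set (8087485; chr3:49805209-49813953) read 7.14, 7.12 and 7.21 in untreated wild-type cells and 7.11, 7.03 and 6.97 in untreated knockout cells. With ATRA, wild-type cells gave 8.99, 8.33 and 8.86 at 48 h and 9.48, 8.68 and 8.92 at 72 h. Knockout cells gave 8.35, 8.39 and 8.32 at 48 h and 8.47, 8.31 and 8.46 at 72 h. At 72 h the 3 wild-type arrays were all brighter than the 3 knockout arrays, as for 1665 of 33297 probe sets. UBA7 rose 2.97-fold (difference 1.57 ± 0.18 SE, adjusted p = 4.65e-06) and 3.66-fold (adjusted p = 6.67e-07) in wild-type cells. The rises in knockout cells were 2.49-fold (adjusted p = 2.78e-05) and 2.60-fold (adjusted p = 1.87e-05).

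PRAM1 is an adaptor protein of granulocyte signalling and takes its name from PML-RARA. Its probe set (8033587; chr19:8490056-8502640) had untreated signals of 7.97, 7.93 and 7.77 in wild-type and 7.96, 7.78 and 7.62 in knockout cells. At 48 h the signals were 11.15, 10.68 and 11.09 in wild-type and 10.89, 10.97 and 10.91 in knockout cells. At 72 h they were 11.29, 10.99 and 11.24 in wild-type and 11.19, 10.85 and 11.03 in knockout cells. Both lines moved between the same levels, and their arrays overlapped in each of the 3 conditions. The rise in wild-type cells was 8.48-fold at 48 h (difference 3.08 ± 0.13 SE, adjusted p = 1.53e-10) and 9.74-fold at 72 h (adjusted p = 5.61e-11). In knockout cells it was 8.79-fold (adjusted p = 1.59e-10) and 9.43-fold (adjusted p = 1.05e-10).

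TNFAIP2, also called M-Sec, is induced by tumour necrosis factor and promotes membrane protrusions together with RALA and the exocyst. Its probe set (7977046; chr14:103121469-103137439) read 7.81, 7.95 and 7.91 in untreated wild-type cells and 7.70, 7.65 and 7.53 in untreated knockout cells. At 48 h it read 10.29, 10.24 and 10.62 in wild-type and 9.71, 9.71 and 9.82 in knockout cells. At 72 h it read 10.76, 10.50 and 10.75 in wild-type and 9.71, 9.87 and 9.76 in knockout cells. The wild-type arrays lay above the knockout arrays in each of the 3 conditions, without overlap. TNFAIP2 rose 5.63-fold (difference 2.49 ± 0.11 SE, adjusted p = 1.98e-10) and 6.87-fold (adjusted p = 5.58e-11) in wild-type cells at 48 and 72 h. It rose 4.35-fold (adjusted p = 1.47e-09) and 4.45-fold (adjusted p = 1.22e-09) in knockout cells.

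CD38 is an ectoenzyme that consumes NAD and a surface marker long used to follow retinoid responses of myeloid cells. Its probe set (8094240; chr4:15778328-15853232) gave 8.55, 8.60 and 8.66 in untreated wild-type cells. In untreated knockout cells it gave 9.08, 8.87 and 8.72, so that the knockout arrays lay above the wild-type ones by a gap of 0.06 (apart in this direction for 8.84% of all probe sets). The 48 h signals were 10.81, 10.46 and 10.67 in wild-type and 10.69, 9.96 and 10.86 in knockout cells. At 72 h the wild-type arrays had 10.88, 10.55 and 10.85 and the knockout arrays 10.75, 10.68 and 10.86. Both lines had a mean of 10.76 at 72 h. CD38 rose 4.12-fold (difference 2.04 ± 0.18 SE, adjusted p = 3.56e-07) and 4.46-fold (adjusted p = 1.7e-07) in wild-type cells. It rose 3.06-fold (adjusted p = 4.21e-06) and 3.66-fold (adjusted p = 9.75e-07) in knockout cells.

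HIC1 is a zinc finger repressor of transcription. Its probe set (8003719; chr17:2055103-2063241) read 7.13, 7.15 and 6.94 without ATRA in wild-type and 7.03, 7.18 and 7.11 in knockout cells. The 48 h arrays read 8.45, 8.56 and 8.60 in wild-type and 8.37, 8.42 and 8.21 in knockout cells. The 72 h arrays read 8.88, 8.71 and 8.24 in wild-type and 8.60, 8.26 and 8.13 in knockout cells. Untreated arrays of the lines overlapped, and treated arrays of the lines overlapped at 72 h but were apart by 0.03 at 48 h. The knockout arrays were the lower ones at 48 h, as for 2.97% of all probe sets. HIC1 rose 2.76-fold (difference 1.46 ± 0.15 SE, adjusted p = 2.01e-06) and 2.90-fold (adjusted p = 1.04e-06) in wild-type cells, and 2.34-fold (adjusted p = 1.28e-05) and 2.33-fold (adjusted p = 1.33e-05) in knockout cells.

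BTG1 is an antiproliferative protein that links the CCR4-NOT deadenylase and the methyltransferase PRMT1 to their targets. Its probe set (7965423; chr12:92140278-92145846) read 9.08, 9.15 and 9.18 in untreated wild-type and 9.05, 9.05 and 9.12 in untreated knockout cells. At 48 h it read 9.87, 9.56 and 10.31 in wild-type and 9.63, 8.90 and 10.43 in knockout cells. At 72 h it read 9.93, 9.43 and 10.42 in wild-type and 10.21, 9.63 and 10.19 in knockout cells. Replicate 2 was the lowest of its group in each of the 4 treated groups, and at 48 h in knockout cells it lay below the untreated arrays. The change at 48 h missed the threshold in wild-type cells (0.78 ± 0.31 SE, adjusted p = 0.0557) and in knockout cells (0.58 ± 0.31, adjusted p = 0.141). At 72 h BTG1 rose 1.73-fold in wild-type (0.79 ± 0.31, adjusted p = 0.0472) and 1.91-fold in knockout cells (0.94 ± 0.31, adjusted p = 0.0225).

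The BTG1 calls at 72 h were lost when some single arrays were left out, in part with little change of the estimate. The 72 h call in wild-type cells was lost without replicate 1 (adjusted p = 0.0889) or 3 (0.54, adjusted p = 0.202) of the treated cells. It was also lost without replicate 1 (0.76, adjusted p = 0.106), 2 (0.80, adjusted p = 0.0929) or 3 (0.81, adjusted p = 0.0889) of the untreated cells. These estimates lay near the 0.79 of the full fit. In knockout cells the 72 h call was lost without replicate 1 or 3 of the treated cells (adjusted p = 0.0761 and 0.0732) or replicate 1 or 2 of the untreated cells (adjusted p = 0.0579 and 0.0577). Without replicate 2 of the treated cells, the 48 h change became a call in wild-type (0.95, adjusted p = 0.0454) and in knockout cells (0.96, adjusted p = 0.0157).

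**Figure D1:**
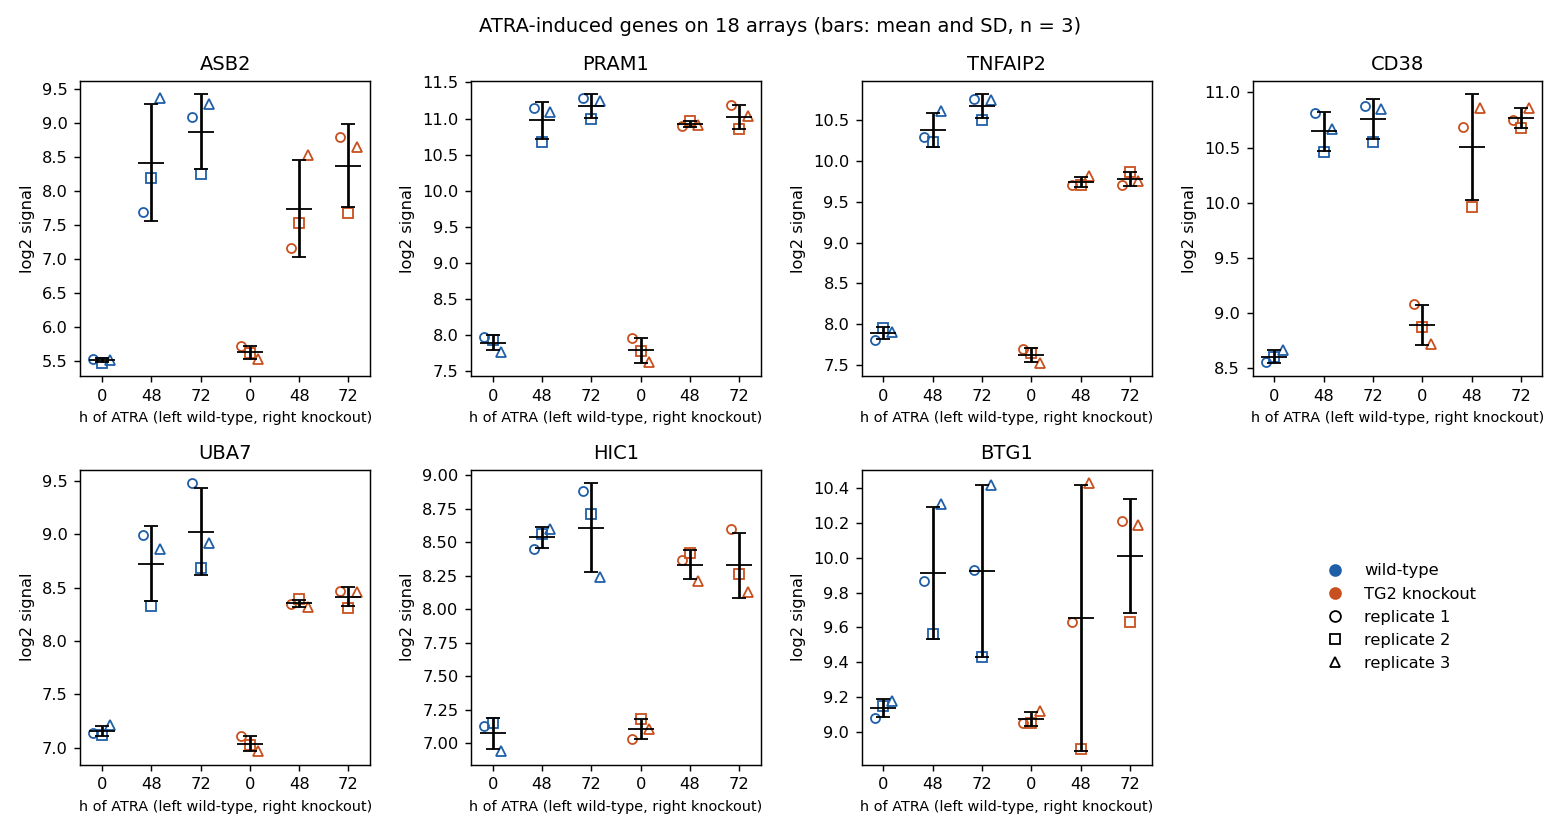
Log2 signal of the 7 genes (vertical axes, each with its own range) against hours of ATRA (horizontal axes) in wild-type (blue) and TG2 knockout cells (orange); each symbol is 1 array, its shape the replicate number, and the bars are the mean and SD of 3 arrays. TNFAIP2 is the gene in which the wild-type arrays lie above the knockout arrays in each condition, and ASB2 and BTG1 have the widest spread under ATRA.

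Read together, 6 of 7 genes were called higher at 48 h and 7 of 7 at 72 h in wild-type cells, where 19.3% and 23.1% of all probe sets were called higher. The counts in knockout cells were 6 of 7 and 7 of 7, beside 21.5% and 22.8% of all probe sets. The treated arrays lay wholly above the untreated ones for 7 of 7 genes at both times in wild-type cells (31.7% and 35.1% of all probe sets). In knockout cells this held for 6 of 7 genes at 48 h and 7 of 7 at 72 h (33.2% of all probe sets at both times). The median change of the 7 genes in wild-type cells was 2.04 at 48 h and 2.16 at 72 h, and in knockout cells 1.61 and 1.87. The median over all probe sets lay between 0.10 and 0.14 in the same comparisons. The calls of ASB2, PRAM1, TNFAIP2, CD38, UBA7 and HIC1 held under each of the 18 alternatives tried in each of these comparisons. By their estimates the genes ran from PRAM1 and ASB2 at the top, through TNFAIP2 and CD38, to UBA7 and HIC1 and then BTG1. Not all steps of this order are resolved. The interval of ASB2 in wild-type cells at 72 h (2.50 to 4.23) contains the values of PRAM1 (3.28) and TNFAIP2 (2.78). The place of ASB2 beside these genes is thus not resolved. The intervals of PRAM1 (3.00 to 3.57) and TNFAIP2 (2.55 to 3.01) overlap narrowly there. In knockout cells at 72 h they are apart (2.95 to 3.52 and 1.92 to 2.39). In wild-type cells at 72 h the intervals of UBA7 (1.49 to 2.25) and HIC1 (1.21 to 1.86) overlap as well. There the interval of CD38 (1.78 to 2.54) overlaps that of UBA7, and that of BTG1 (0.14 to 1.44) overlaps that of HIC1. In knockout cells at 72 h the interval of BTG1 (0.29 to 1.59) contains the values of HIC1 (1.22) and UBA7 (1.38).

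**Figure D2:**
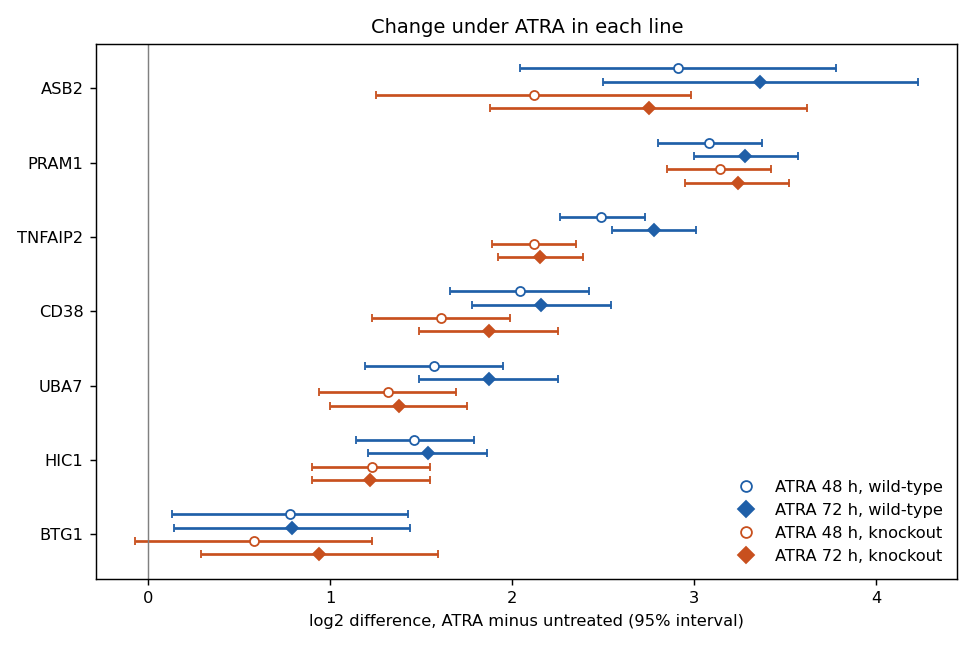
Log2 difference between ATRA-treated and untreated cells (horizontal axis) for each gene (vertical axis), with 95% intervals from the limma fit of 18 arrays; circles are 48 h, diamonds 72 h, blue is wild-type and orange is knockout. The intervals lie above 0 for each gene and comparison except BTG1 at 48 h in knockout cells (0.58).

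The second question the times allow is whether the genes went on rising between 48 and 72 h. No member was called between these times in either line, and no probe set at all was called by limma (0% of 33297 in both lines, with 1952 in wild-type and 2732 in knockout cells at an unadjusted p under 0.05). The differences of the 7 genes ranged from 0.01 to 0.45 in wild-type cells, with a median of 0.20. In knockout cells they ranged from −0.00 to 0.63, with a median of 0.10. TNFAIP2 in wild-type cells was the only one of the 7 with an unadjusted limma p under 0.05 (0.29 ± 0.11 SE, unadjusted p = 0.0196, adjusted p = 0.761). By 48 h PRAM1 had reached 93.9% of its 72 h log2 change in wild-type and 96.9% in knockout cells. ASB2 had reached 86.5% and 77%, and BTG1 98.3% and 61.9%, the lowest share among the 7 genes. The 95% intervals were wide where replicates scattered, as for ASB2 in wild-type cells (−0.41 to 1.32), so further rises of that size were not detectable with 3 arrays per group.

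The next comparison asks whether these genes differ between the line labelled TG2 knockout and the wild-type line. TNFAIP2 was the 1 member called, and it was lower in knockout cells at 72 h. There its signal was 54% of the wild-type signal (95% interval 45.9% to 63.5%), a log2 difference of −0.89 ± 0.11 (SE, adjusted p = 0.00408). Over all probe sets, 17 (0.0511%) were called lower and 15 higher in that comparison. At 48 h the difference was −0.64 ± 0.11, or 64.3% of the wild-type signal, and missed the threshold (adjusted p = 0.0956). In untreated cells it was −0.26 ± 0.11, or 83.3% (unadjusted p = 0.0299, adjusted p = 1). The gap between the lowest wild-type and the highest knockout array was 0.11 untreated, 0.42 at 48 h and 0.63 at 72 h. Arrays of the lines were apart in this direction for 9.30% of all probe sets in untreated cells, 2.97% at 48 h and 1665 of 33297 at 72 h.

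The call of TNFAIP2 at 72 h was kept without any single array of the 2 groups (adjusted p up to 0.0346). It was lost when only the 2 groups compared were fitted (−0.89, adjusted p = 0.234). It was also lost without all arrays of replicate 1 (−0.81, adjusted p = 0.352), 2 (−1.02, adjusted p = 0.0575) or 3 (−0.84, adjusted p = 0.16), a choice made after seeing the data. The change of TNFAIP2 under ATRA was smaller in knockout than in wild-type cells by 0.63 ± 0.16 at 72 h (95% interval of the knockout minus wild-type difference −0.96 to −0.30). This difference of responses had an unadjusted p of 0.00101 but an adjusted p of 0.98, and no member was called in it at either time (1 probe set of all, 0.00300%, at 48 h). By limma 0 of 33297 probe sets (0%) were called in that test, with 1553 at an unadjusted p under 0.05. Markers of monocytes also had lower means in knockout cells: at 72 h CSF1R had a mean of 7.18 in wild-type and 6.22 in knockout cells, and S100A8, which mature neutrophils also express, 9.02 and 8.28. CD14 had 6.43 and 6.24, FCGR3A 4.28 and 4.17, and CD163 4.93 and 4.79, so 5 of 5 measured monocyte markers lay lower, beside 48.2% of all probe sets. At 48 h CD163 was the marker higher in knockout cells (4.44 in wild-type and 4.71 in knockout). The others were lower at 48 h: S100A8 (8.59 and 7.88), FCGR3A (4.37 and 3.90), CSF1R (6.78 and 6.37) and CD14 (6.37 and 6.34). In untreated cells FCGR3A was the higher one (3.62 and 3.77). CD14 (5.92 and 5.73), S100A8 (5.27 and 5.07), CD163 (4.57 and 4.42) and CSF1R (6.38 and 6.30) were lower there. Their part in the TNFAIP2 difference was not tested.

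The other members were not called between the lines at any time. UBA7 came nearest, with 65.4% of the wild-type signal at 72 h (difference −0.61, 95% interval −0.99 to −0.24, unadjusted p = 0.00325, adjusted p = 0.212). Its knockout arrays lay below the wild-type arrays by a gap of 0.21 at 72 h and of 0.01 in untreated cells. The lines overlapped at 48 h. Arrays were apart in this direction for 1665 of 33297 probe sets at 72 h and for 9.30% in untreated cells. For ASB2 the difference was −0.68 at 48 h (95% interval −1.54 to 0.19) and −0.50 at 72 h (−1.36 to 0.37). A fall to less than 40% of the wild-type signal lies within the interval at both times, in a fit without pairing. Between arrays of the same replicate number, ASB2 read lower in knockout cells at 48 h (7.16, 7.54 and 8.54 beside 7.70, 8.19 and 9.38). The same held at 72 h (8.80, 7.68 and 8.66 beside 9.10, 8.25 and 9.28). Untreated knockout arrays read higher (5.73, 5.62 and 5.54 beside 5.54, 5.48 and 5.52). With the replicate block ASB2 was still not called. PRAM1 was measured more closely: its 72 h difference of −0.15 had an interval of −0.43 to 0.13. CD38 differed by 0.00 at 72 h, with an interval of −0.38 to 0.38, and by 0.29 (−0.09 to 0.67, adjusted p = 1) in untreated cells. HIC1 differed by −0.28 (−0.60 to 0.04) and BTG1 by 0.08 (−0.57 to 0.73) at 72 h.

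As a set, 7 of 7 members had a lower mean in knockout cells at 48 h and 5 of 7 at 72 h, where 46.9% and 48.2% of all probe sets were lower. In untreated cells it was 4 of 7, beside 53.4% of all probe sets. The count of 7 at 48 h held in 12 of 18 alternatives. It went to 5 without knockout replicate 2, where CD38 had a difference of 0.13 and BTG1 of 0.12. It went to 6 without wild-type replicate 1 or 3, where PRAM1 had 0.04 and 0.01, and also without all arrays of replicate 1, 2 or 3. The median differences of the 7 genes were −0.06 untreated, −0.26 at 48 h and −0.28 at 72 h, against −0.01, 0.01 and 0.01 over all probe sets. Such a shift was not particular to the members. Of the gene lists described below, the 34 other retinoid-responsive genes had medians of −0.18 at 48 h and −0.23 at 72 h. The PRAM1 list had −0.36 and −0.25. Medians of the remaining lists lay between −0.15 and −0.01 at 48 h and between −0.19 and 0.09 at 72 h. The members share each array, so their directions are not independent. No member was called at 48 h (7 of all probe sets called, 0.0210%, with 1972 at an unadjusted p under 0.05) or in untreated cells (2 called, 0.00601%, with 382). With array weights estimated per group, TNFAIP2 was also called in untreated cells (adjusted p = 0.0347), and the call count over all probe sets went from 2 to 309.

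**Figure D3:**
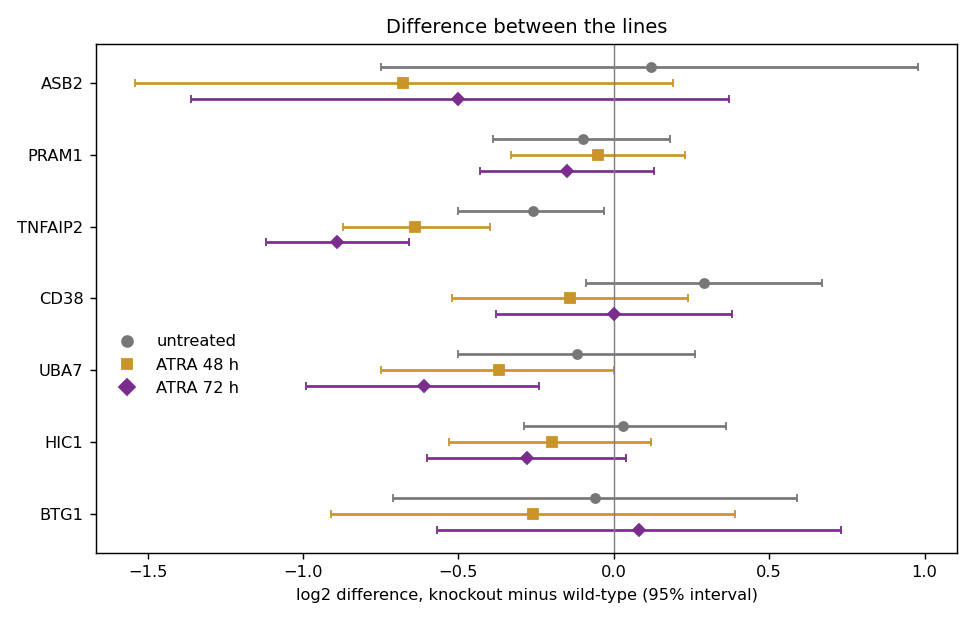
Log2 difference, knockout minus wild-type (horizontal axis), for each gene (vertical axis) in untreated cells (grey circles), at 48 h (ochre squares) and at 72 h (purple diamonds), with 95% intervals from the limma fit. TNFAIP2 moves from −0.26 through −0.64 to −0.89, while the intervals of ASB2, PRAM1, CD38, HIC1 and BTG1 include 0 in each condition.

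Replicates of the treated groups are described next, across the members. In the 28 sets of 3 treated arrays (7 genes in 4 groups), replicate 2 was the lowest in 18 and the highest in 4. Replicate 1 was the lowest in 5 and the highest in 13, and replicate 3 was the lowest in 4 and the highest in 11. CD38 and BTG1 were lowest in replicate 2 in 4 of 4 treated groups. HIC1 went another way, with replicate 3 lowest in 3 of 4 groups. Averaged over the 4 groups, replicate 2 lay below its group mean by 0.50 in BTG1 (deviation −0.50), with deviations of −0.44 in ASB2 and −0.26 in CD38. Replicate 3 deviated by 0.61 in ASB2 and 0.46 in BTG1, while no TNFAIP2 mean deviation was beyond 0.09. Over all probe sets, the replicate 2 array was the lowest for 33% to 36.5%. The members share each array, so these 28 sets are not independent, and no test was made. The labels do not say what a replicate number stands for beyond a biological replicate.

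**Figure D4:**
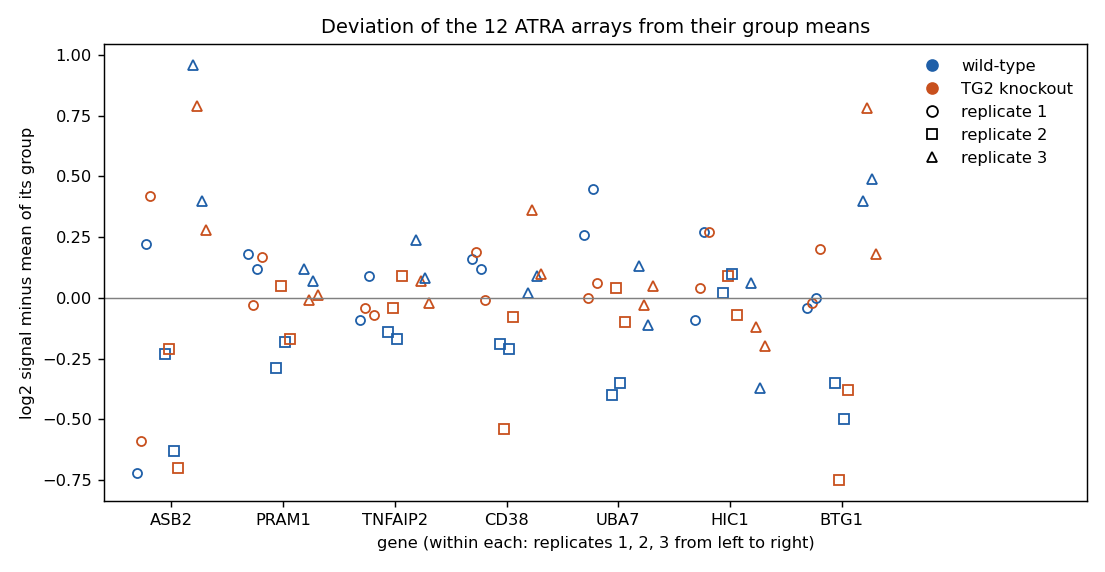
Deviation of each of the 12 treated arrays from the mean of its group (vertical axis, log2) for each gene (horizontal axis), with circles, squares and triangles for replicates 1, 2 and 3 and colours for the line. Squares lie below 0 for ASB2, CD38 and BTG1, and the deviations of TNFAIP2 are small beside those of ASB2.

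Genes that work with each member were described from lists chosen by function, with wild-type cells at 72 h against untreated cells as the comparison. Over all probe sets 23.1% were called higher and 21.0% lower there, with a median change of 0.12, and in knockout cells 22.8% were called higher and 19.2% lower, with a median of 0.13. Of 34 other retinoid-responsive genes, 23 were called higher and 4 lower (median 0.67), and in knockout cells 18 were higher and 6 lower (median 0.50). TGM2 rose by 5.95 in wild-type and 4.85 in knockout cells, and DHRS3, which reduces retinal, by 3.92 and 3.62. The adhesion molecule ICAM1 rose by 3.49 and 3.09, and the interferon-linked transcription factor IRF1 by 2.60 and 2.34. Between the lines at 72 h, TGM2 was the only one of the 34 called (lower in knockout cells).

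Most genes of the PRAM1 list were higher under ATRA. The list holds adaptor proteins, Src family kinases and integrin chains of the wider pathway, so not all are binding partners. ITGAM is also among the 34 retinoid-responsive genes. Of 10 measured, 8 were called higher and 0 lower (median 0.92), and 7 were higher and 0 lower in knockout cells (median 0.60). FGR, a Src family kinase, rose by 4.34 in wild-type and 4.24 in knockout cells. LYN, another kinase of that family, was not called in wild-type cells (0.24, adjusted p = 0.416). ITGAM and ITGB2, which form the neutrophil integrin Mac-1, rose by 2.32 and 1.44 in wild-type and by 1.36 and 1.24 in knockout cells. SKAP2, a binding partner of PRAM1, rose by 1.07 in both lines.

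In the ASB2 ligase list more genes fell than rose. Of 17 genes 1 was called higher and 7 lower (median −0.07), with 0 higher and 6 lower in knockout cells. ELOC, the elongin subunit that ASB2 binds, fell by 1.62 in wild-type cells (adjusted p = 5.63e-08) and by 1.40 in knockout cells (adjusted p = 3.44e-07). CUL5, the scaffold of the ligase, fell by 0.86 in wild-type cells (adjusted p = 0.00146). SKP2, a cell cycle F-box protein, fell by 1.80, the related ASB8 fell by 1.28, and the methyltransferase KMT2A fell by 1.27.

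The list built around the family and complex of BTG1 held no called rise in wild-type cells. Beside BTG, TOB and CCR4-NOT genes it holds PRMT1, PRMT5, HOXB9, PAN2, PAN3 and PABPC1. Of the 20 genes of this list 0 were called higher and 10 lower in wild-type cells (median −0.34; 4 alternatives called 1 or 2 higher), and 2 were higher and 8 lower in knockout cells (median −0.20). CNOT9, CNOT4 and CNOT2, which belong to the CCR4-NOT complex or act with it, fell in wild-type cells, with changes of −1.60, −1.46 and −1.10. In knockout cells their changes were −1.51, −1.33 and −1.09, also called. PRMT5, an arginine methyltransferase, changed by −1.56 and −1.39.

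The remaining lists held calls in both directions. In the list for ISG15 conjugation, 2 of 12 genes were called higher and 2 lower (median −0.20), and in knockout cells 2 higher and 5 lower. This list also holds UBA1, UBA3 and UBA6, related activating enzymes of other modifiers. UBE2L6, the enzyme that takes ISG15 over from UBA7, rose by 1.21 (adjusted p = 2.55e-05) in wild-type and 1.11 in knockout cells. ISG15 itself had a change of 0.25 (adjusted p = 0.299), UBA3 rose by 0.48, ARIH1 fell by 0.86 and UBE2E1 fell by 0.82. For TNFAIP2 and the exocyst, 2 of 12 were higher and 4 lower, and in knockout cells 3 higher and 3 lower. In wild-type cells RALB rose by 0.83 and EXOC3 by 0.73, while RALA fell by 0.86 and EXOC6 fell by 0.66. With quantile normalization or array weights 4 of these 12 were called higher. RALA was not called in knockout cells (−0.34, adjusted p = 0.115). Among 17 genes of NAD metabolism 5 were higher and 2 lower, and in knockout cells 3 higher and 1 lower. The wild-type changes included NADK, which makes NADP, at 1.10, ART4 at 0.65, PARP1 at −0.77 and QPRT at −0.67, of which PARP1 was not called in knockout cells (−0.68, adjusted p = 0.0648). Among 12 HIC1 partners and targets 2 were higher (TCF7L2 by 0.87, CDKN1C by 0.60) and 2 lower (EFNA1 at −0.59, MTA1 at −0.49). In knockout cells 1 was higher and 0 lower, and TCF7L2 (0.28), EFNA1 (−0.17) and MTA1 (−0.34) were not called. The wild-type count of HIC1 partners and targets called higher rose to 6 after quantile normalization. It fell to 1 without replicate 1 or 2 of the untreated or replicate 1 or 3 of the treated wild-type cells.

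**Figure D5:**
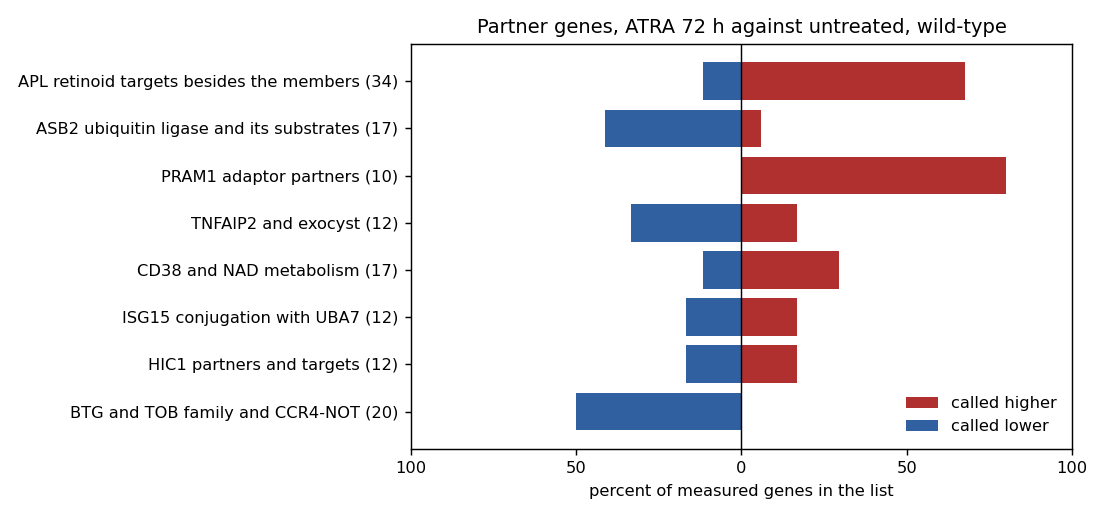
Percent of the measured genes of each list (number in brackets) called higher (red, to the right) or lower (blue, to the left) at 72 h of ATRA against untreated wild-type cells. The list named PRAM1 adaptor partners has 8 of 10 higher and 0 lower, and the BTG, TOB and CCR4-NOT list 0 of 20 higher and 10 lower.

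Genes with the most similar pattern over the 6 groups were found by the root mean square (RMS) difference between group means, each profile centred on its own mean, among 17505 genes. For TNFAIP2 they were HK3, a hexokinase (RMS 0.115), PADI4, which citrullinates histones (0.132), and the carboxylesterase CES1 (0.154). The closest to PRAM1 were PSMB8, an immunoproteasome subunit (0.084), GNG2 (0.149) and PSMB9 (0.150). CD38 was closest to PDCD4 (0.092), ROR2 (0.095) and CSF3R, the receptor for granulocyte colony-stimulating factor (0.098). ASB2 was closest to SERPINB1, an inhibitor of neutrophil proteases (0.135), KCNH4 (0.142) and ICAM1 (0.153). UBA7 had CCR1 (0.076), IVNS1ABP (0.078) and PFKFB4 (0.078) nearest to it, and HIC1 had ATG16L2 (0.044), HPCAL1 (0.049) and PPP1R9B (0.059). BTG1 was nearest to TRAM1L1 (0.027), MAPDA (0.046) and MEP1B (0.047). Genes with small changes have small RMS differences to many others, so these values do not rank the members. Among the members themselves, UBA7 and HIC1 were closest (0.154) and PRAM1 and BTG1 farthest apart (1.142).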

How the data were processed

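The authors deposited 1 log2 signal for each probe set on each array, already summarised over probes; that the scale is log2 was read from the range of the values (0.73 to 13.56). How the authors corrected background and normalized is not stated in the labels. Array medians lay between 6.12 and 6.26, and no array was left out. Per the labels, each group holds 3 biological replicates; whether these were separate cultures is not stated, so p-values measure the spread between these arrays. No detection calls were used.

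limma 3.58.1 in R 4.3.3 was fitted to 33297 probe sets with 1 mean per group and eBayes with a mean-variance trend, after tests on simulated data. Tests were 2-sided. Folds are antilogs of log2 differences. The genes, lists and alternatives were chosen with earlier results of these data known. Named genes were the members, TGM2, up to 4 called genes per list with the largest change at 72 h in wild-type cells, and the 3 nearest genes by pattern. CUL5, ISG15, LYN and the marker genes were named after their values were seen. Same-numbered arrays of the lines deviated together at 72 h (r = 0.103, 0.16 and 0.138 across probe sets) but not by the same rule in the other comparisons. At 48 h the r values between the lines were 0.196, 0.194 and 0.089, of which 0.089 fell below the cut-off of that rule. Between 48 and 72 h in the wild-type line they were 0.095, 0.137 and 0.186, of which 0.095 also fell below it. By this rule the number was read as a possible pairing of the 72 h arrays, as a hint from the data. The cut-off was a choice, so the hint is not confined to the 72 h arrays. The reported fit used no pairing, and the replicate block was only an alternative.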

Additional observations from a re-analysis of the deposited data

How the results depend on the processing

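The settings tried were the brighter or single-gene probe sets, quantile normalization or centring of arrays, eBayes without trend or robust, array weights, the replicate block, only the groups compared, and leaving out arrays. Leaving out a replicate number everywhere was added after seeing the data. Members called between the lines went from 0 to 1 in untreated cells with array weights. At 72 h they went from 1 to 0 with only the groups compared, and to 0 without replicate 1, 2 or 3 in every group (range 0 to 0; 1 to 1 without single arrays). With the replicate block TNFAIP2 stayed called at 72 h (adjusted p = 0.00731). The block also called BTG1 at 48 h (adjusted p = 0.0103 in wild-type, 0.0417 in knockout cells), and changed no other member call. BTG1 at 48 h was called in 8 of 18 alternatives in wild-type and 4 of 18 in knockout cells, and at 72 h in 8 and 13 of 18. No called member value changed sign; 48 of 1470 member values, none of them called, did. Over all probe sets, the 72 h count of 32 between the lines became 53 with quantile normalization, 14 with array weights, 0 with only the groups compared, and 11 to 126 without single arrays (126 without wild-type replicate 2, 11 without wild-type replicate 1). The 48 h count of 7 became 0 with array weights or only the groups compared, and 1 to 13 without single arrays. The untreated count of 2 became 284 with only the groups compared. Between 48 and 72 h, where 0 were called, eBayes without trend called 3 in knockout cells. Leaving out single arrays called up to 14 there (without knockout 72 h replicate 2) and up to 7 in wild-type cells (without 48 h replicate 3). The lowest probe set of a gene gave no other value, since each member has 1. The cause of these changes was not tested.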
